A study of Mus musculus with 39 samples.

Results

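A set of 110 genes had lower RNA levels after 2 hours of reduced oxygen in mouse liver, bone marrow and spleen alike. The genes were chosen by these same measurements, so the difference between reduced oxygen and control is a description of them and carries no test. Each gene was read in each tissue from 1 Affymetrix probe set, a group of short oligonucleotides on the array that matches 1 gene symbol. The probe set of highest mean intensity in that tissue was taken. A lower level refers to that probe set, and for some genes further probe sets rose. A gene entered the set when its control arrays averaged a log2 intensity of at least 6 and its mean log2 difference, reduced oxygen minus control, was at or below -0.3 in all 3 tissues. Of 18193 genes with a named probe set, 8731 reached the control minimum in all 3 tissues and 124 of those passed the difference, or 1.42%. Symbols starting with Zfp (13 genes), Klf (0 genes) and the endothelial factor gene Sox18 were left out, which gave the 110 genes. Id3 and Cebpg, which the rule also names, did not meet the difference in all 3 tissues.

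The mice were B6C3F1, a cross of the C57BL/6 and C3H strains, kept under reduced oxygen or under a control condition that the sample titles call vehicle without naming a substance. All were killed by cervical dislocation under ketamine and acepromazine anaesthesia, so both arms carry that anaesthetic. The arrays held total RNA of whole tissue: liver (8 control, 8 reduced oxygen), bone marrow (3 control, 4 reduced oxygen) and spleen (8 control, 8 reduced oxygen), 39 in all. The labels do not say whether the samples of a group came from separate mice or whether samples of the same number shared one, so p-values reflect sample-to-sample spread alone, and part of that may be technical.

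An RNA level is set by how fast the RNA is made and how fast it decays, and the RNAs of many transcription regulators, splicing factors and signalling inhibitors are known to turn over quickly. Low oxygen is best known for raising genes, through the hypoxia-inducible factors (HIF), which bind a short DNA element once the enzymes that mark them for destruction run short of oxygen. Splicing factors of the SR and LUC7 families, the CLK kinases that phosphorylate them, and the nuclear exosome adaptors act on the same nascent RNA, and many of their transcripts exist in several isoforms. Neither synthesis nor decay was measured here, and in whole tissue fewer cells of a type and less RNA per cell cannot be told apart.

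The mean of the 110 genes separated the groups in every tissue, as the choice of the genes makes likely. In control livers the array means ran from 7.70 to 8.03 with a median of 7.85 on the log2 scale, and under reduced oxygen from 7.10 to 7.54 with a median of 7.29. In bone marrow they ran from 8.83 to 8.91 (median 8.86) in controls and from 8.30 to 8.41 (median 8.39) under reduced oxygen. Spleen gave 8.82 to 8.95 (median 8.88) and 8.27 to 8.40 (median 8.37). The liver arrays were the most spread, and within each arm the livers numbered 1 to 4 all lay above those numbered 5 to 8. Under reduced oxygen the gap was small, with the lowest of livers 1 to 4 at 7.32 and the highest of livers 5 to 8 at 7.26.

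**Figure D1:**
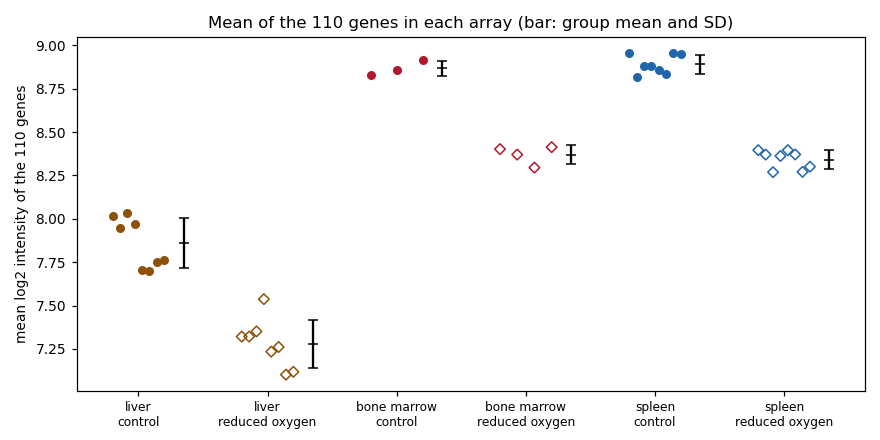
Mean log2 intensity of the 110 genes in each of the 39 arrays, by tissue and arm, with filled circles for control, open diamonds for reduced oxygen and bars for the group mean and SD. In each tissue every reduced oxygen array lies below every control array, which the choice of the genes favours. Within each arm the livers fall into a higher set (replicates 1 to 4, the left points) and a lower one.

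The median difference of the 110 genes was -0.49 (liver), -0.43 (bone marrow) and -0.51 (spleen). Over the 8731 genes that met the control minimum the medians were -0.04, -0.02 and -0.01. A typical gene of the set thus stood at 71.2% of its control level in liver, at 74.2% in bone marrow and at 70.3% in spleen. Differences at or below -0.5 were found for 51 genes (liver), 43 (bone marrow) and 58 (spleen), and at or below -1 for 8, 4 and 4. Of the 3 tissues, the difference was furthest from 0 in liver for 49 genes, in spleen for 40 and in bone marrow for 21. The deepest differences were those of Clec2d in liver (-1.60), Snai2 in bone marrow (-1.52) and Thap2 in spleen (-1.43).

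The 3 differences of a gene often lay close together, which the common threshold favours, so no evenness across tissues is read from it. Where 3 values follow each other without a tissue, here and below, they stand for liver, bone marrow and spleen in that order. The largest of a gene's 3 differences minus the smallest had a median of 0.23, was under 0.1 for 16 genes and over 0.5 for 15. It was 0.02 for Ngrn, whose differences were -0.39, -0.40 and -0.41 in liver, bone marrow and spleen, and 1.17 for Fzd7, with -1.49, -0.37 and -0.31.

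**Figure D2:**
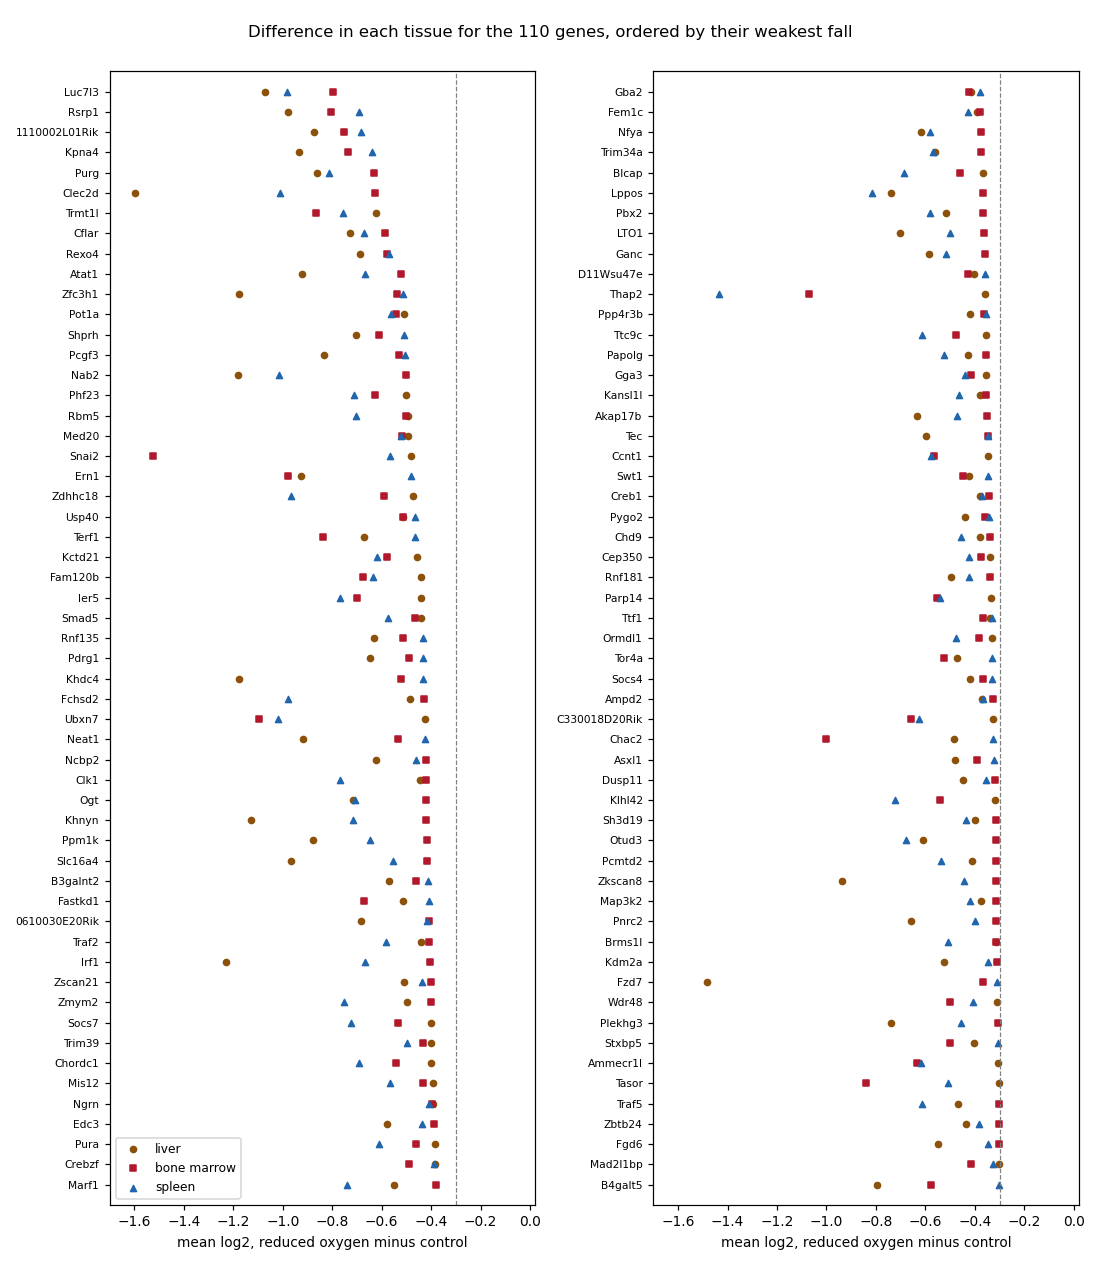
Mean log2 difference, reduced oxygen minus control, of each of the 110 genes in liver (circles), bone marrow (squares) and spleen (triangles), ordered by the weakest of the 3, with a dashed line at the threshold of -0.3. The order runs from Luc7l3, with -1.07, -0.80 and -0.98, to B4galt5, at -0.30 in spleen, and all points lie at or left of the line because the rule requires it.

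The share of genes that met a criterion is given beside the share of all genes that did, and nothing is read from either, since the rule used the same contrast. Reduced oxygen arrays lay wholly below control arrays for 41 of the 110 genes (liver), 102 (bone marrow) and 63 (spleen), against 2.26%, 14.4% and 3.84% of the 8731 genes. This held in all 3 tissues for 25 genes, against 0.47%. The limma fit over all 12735 genes above the dim-gene filter called (adjusted p under 0.05) 101 of the 110 lower in liver, 105 in spleen and 88 in bone marrow. Over all genes tested, 7.22% were called lower and 3.88% higher in liver, 4.92% and 2.76% in bone marrow and 12.6% and 6.83% in spleen. Over all genes, the lower calls in liver numbered 919, against 1637 with the replicate block and 1856 with the number set as a term. Those in bone marrow numbered 627, against 263 without reduced oxygen 2, 297 without control 2, 311 without reduced oxygen 3 and 372 without control 3. Among the 110, the bone marrow count fell to 50 without control 2, 57 without control 3 and 55 without reduced oxygen 2. All 3 tissues had a lower call for 77 of the 110, against 1.22% of the genes tested in all 3. The threshold of -0.3 alone was met by 8.56% of the 8731 genes in liver, 8.82% in spleen and 6.87% in bone marrow.

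Promoters of the genes are shown for 5 of them that lead the set or lie next to another gene of it. They are Luc7l3 (chr11:94321914-94322213 on the minus strand) and Rsrp1 (chr4:134923375-134923674 on the plus strand), which lead the set, and Trmt1l (chr1:151428292-151428591 on the plus strand), Thap2 (chr10:115384386-115384685 on the minus strand) and Zfc3h1 (chr10:115384709-115385008 on the plus strand), which start beside another gene of the set. The windows are RefSeq sequence of build GRCm38.p6, 300 bases each, from 250 bases before the annotated start to 50 after it, written 5′ to 3′ on the gene's strand. Capitals mark GGGCGG, the GC box that Sp1-type factors bind, and ACGTG, the core of the HIF element, on either strand.
Luc7l3: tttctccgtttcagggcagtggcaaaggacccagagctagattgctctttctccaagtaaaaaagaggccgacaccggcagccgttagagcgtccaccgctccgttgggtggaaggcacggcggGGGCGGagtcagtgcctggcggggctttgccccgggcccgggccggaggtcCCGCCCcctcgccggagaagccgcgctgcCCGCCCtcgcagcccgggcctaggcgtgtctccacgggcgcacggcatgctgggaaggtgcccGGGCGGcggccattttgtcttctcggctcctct
Rsrp1: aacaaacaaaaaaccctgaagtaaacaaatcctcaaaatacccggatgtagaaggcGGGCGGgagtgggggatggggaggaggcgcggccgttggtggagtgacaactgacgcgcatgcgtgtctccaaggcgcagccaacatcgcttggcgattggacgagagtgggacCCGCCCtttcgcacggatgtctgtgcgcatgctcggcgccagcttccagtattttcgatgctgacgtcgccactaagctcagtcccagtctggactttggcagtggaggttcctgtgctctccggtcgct
Trmt1l: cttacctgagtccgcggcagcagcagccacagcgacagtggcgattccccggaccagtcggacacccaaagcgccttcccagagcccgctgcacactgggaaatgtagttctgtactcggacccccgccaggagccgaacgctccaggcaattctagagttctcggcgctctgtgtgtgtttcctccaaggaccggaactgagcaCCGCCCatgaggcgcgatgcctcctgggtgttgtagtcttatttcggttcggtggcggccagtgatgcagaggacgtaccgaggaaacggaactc
Thap2: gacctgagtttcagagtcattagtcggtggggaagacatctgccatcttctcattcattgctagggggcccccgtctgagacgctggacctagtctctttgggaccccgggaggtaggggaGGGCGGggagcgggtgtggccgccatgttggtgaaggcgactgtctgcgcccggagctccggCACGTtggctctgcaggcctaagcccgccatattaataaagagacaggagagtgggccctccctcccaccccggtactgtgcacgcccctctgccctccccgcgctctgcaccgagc
Zfc3h1: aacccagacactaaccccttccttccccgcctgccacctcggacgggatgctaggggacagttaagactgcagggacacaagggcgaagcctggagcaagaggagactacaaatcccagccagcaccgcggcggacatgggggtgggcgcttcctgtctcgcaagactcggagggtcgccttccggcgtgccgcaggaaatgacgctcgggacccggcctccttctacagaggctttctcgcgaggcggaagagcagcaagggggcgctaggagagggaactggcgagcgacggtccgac

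Luc7l3 held 4 copies of the GC box, Rsrp1 2, Trmt1l and Thap2 1 each and Zfc3h1 0, and the HIF core was in the Thap2 window only of these 5. RefSeq promoter windows were at hand for 91 of the 110 genes, 110 windows in all. The GC box GGGCGG was in 74.5% of them, against 64.5% of the 9217 windows of the genes that met the control minimum and 35.7% of all 32851 windows. The HIF core ACGTG was in 16.4%, against 26.5% and 19.6%. CACGTG, the E-box, which contains the HIF core, was in 4.55%, against 10.6% and 7.15%. GCGCATGC, the core of the NRF1 element, was in 11 of the 110 windows, against 5.58% and 2.71%, and CCGGAAG, an ETS core, in 21.8%, against 19.1% and 8.86%. The cyclic AMP element gave 24.5%, 32.5% and 20.8% for the 5 letters TGACG and 0.909%, 3.25% and 1.79% for TGACGTCA, which contains them. CCAAT was in 33.6%, 37.1% and 37.4% and TATAAA in 6.36%, 6.76% and 13.6%. The remaining 3 letter runs were AAGATGGCG (1.82%, 3.52% and 1.4%), CTCGCGAG (2.73%, 1.95% and 0.919%) and GAANNTTC, read by heat shock factors (7.27%, 5.6% and 7.86%). A match is a description of these letters, counted on both strands, and not a site of binding. The windows had a median GC content of 61.8% and 21.5 CpG dinucleotides, against 61.3% and 21 for the genes that met the control minimum and 52.7% and 7 for all. The genes themselves spanned a median of 24.3 kb, against 23.2 kb and 13.0 kb.

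The genes that act on nuclear pre-mRNA included the leaders of the set. This group, named like the others after the genes were known, held 10 genes and had median differences of -0.78 (liver), -0.51 (bone marrow) and -0.52 (spleen). Luc7l3 encodes a LUC7-like protein that works with the U1 particle at 5′ splice sites. Its 8 control livers ran from 9.02 to 9.60 with a median of 9.24 and its 8 reduced oxygen livers from 7.86 to 8.57 with a median of 8.17. The 3 control bone marrow arrays read 11.01, 11.19 and 11.14 and the 4 reduced oxygen arrays 10.34, 10.28, 10.23 and 10.42. Spleen controls ran from 11.22 to 11.51 with a median of 11.33 and reduced oxygen spleens from 10.15 to 10.55 with a median of 10.41. The groups did not overlap in any tissue, and the differences were -1.07 ± 0.11 (liver), -0.80 ± 0.07 (bone marrow) and -0.98 ± 0.07 (spleen), where ± is the standard error of the limma fit. Luc7l3 thus stood at 47.5%, 57.5% and 50.5% of control.

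Rsrp1 encodes an arginine- and serine-rich protein, the composition shared by SR splicing factors. Rsrp1 ran from 10.68 to 11.39 with a median of 10.95 in control livers and from 9.68 to 10.33 with a median of 9.96 under reduced oxygen. In bone marrow it read 11.22, 11.41 and 11.51 in controls and 10.58, 10.53, 10.37 and 10.81 under reduced oxygen. Spleen controls ran from 11.65 to 12.08 with a median of 11.77, with replicate 7 the highest, and reduced oxygen spleens from 10.81 to 11.29 with a median of 11.18. Again no array of one arm reached the other, and the differences were -0.98 ± 0.11, -0.80 ± 0.11 and -0.69 ± 0.08. Zfc3h1 encodes a zinc finger protein that links polyadenylated nuclear RNA to the exosome for decay. Its control livers ran from 7.78 to 8.78 with a median of 8.27 and its reduced oxygen livers from 6.81 to 7.60 with a median of 7.08. Bone marrow read 9.37, 9.45 and 9.59 in controls and 8.92, 8.92, 8.82 and 9.07 under reduced oxygen. In spleen Zfc3h1 ran from 9.28 to 9.54 with a median of 9.41 in controls and from 8.73 to 9.12 with a median of 8.85 under reduced oxygen. The arms did not overlap, though the control livers split into 8.54 and above for replicates 1 to 4 and 8.00 and below for 5 to 8. The differences of Zfc3h1 were -1.18 ± 0.17, -0.54 ± 0.08 and -0.51 ± 0.07.

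Khdc4, a KH-domain RNA-binding protein tied to splicing, had its deepest difference in liver, -1.18 ± 0.14, against -0.52 ± 0.10 in bone marrow and -0.43 ± 0.07 in spleen, with no overlap in any. Clk1, the kinase that phosphorylates SR proteins, had its deepest difference in spleen, -0.77 ± 0.06, against -0.45 ± 0.12 and -0.42 ± 0.10 in liver and bone marrow. Rbm5, an RNA-binding splicing regulator, likewise was at -0.70 ± 0.08 in spleen, -0.50 ± 0.11 in liver and -0.50 ± 0.08 in bone marrow. Neat1, the long noncoding RNA on which nuclear paraspeckles assemble, was at -0.92 ± 0.22 in liver, where its control arrays had an SD of 0.63 and overlapped the other arm, and at -0.54 ± 0.07 and -0.42 ± 0.09 in bone marrow and spleen. Ncbp2, the small subunit of the nuclear cap-binding complex, was at -0.62, -0.42 and -0.46. The poly(A) polymerase gene Papolg was at -0.43, -0.36 and -0.52, and Akap17b, named for a kinase anchor, at -0.63, -0.35 and -0.47.

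A second group of 11 genes acts on RNA later, in decay, in tRNA and ribosome work or in mitochondria, with median differences of -0.58 (liver), -0.40 (bone marrow) and -0.44 (spleen). Trmt1l encodes a relative of the tRNA guanine methyltransferase TRMT1. Its control livers ran from 7.28 to 7.93 with a median of 7.43 and its reduced oxygen livers from 6.62 to 7.20 with a median of 6.89. Its bone marrow arrays read 8.21, 8.37 and 8.37 in controls and 7.52, 7.53, 7.38 and 7.40 under reduced oxygen. Trmt1l in spleen ran from 8.32 to 8.79 with a median of 8.53 in controls and from 7.51 to 8.02 with a median of 7.80 under reduced oxygen. No tissue showed an overlap, and bone marrow had the deepest of the 3 differences, -0.87 ± 0.07, beside -0.62 ± 0.11 in liver and -0.76 ± 0.08 in spleen. Rexo4 encodes a nucleolar protein of the RNA exonuclease family. Rexo4 ran from 7.47 to 8.14 with a median of 7.77 in control livers and from 6.50 to 7.48 with a median of 7.20 under reduced oxygen, where 1 array reached the lowest controls. In bone marrow its arrays read 8.90, 8.77 and 8.80 and 8.42, 8.17, 8.10 and 8.27. Its spleens ran from 8.82 to 9.19 with a median of 9.03 and from 8.29 to 8.61 with a median of 8.43. The bone marrow and spleen arms stayed apart, and the 3 differences of Rexo4 were close to each other at -0.69 ± 0.14, -0.58 ± 0.08 and -0.57 ± 0.07.

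Khnyn, a nuclease partner of the antiviral protein ZAP, was at -1.13 ± 0.11 (liver), -0.42 ± 0.09 (bone marrow) and -0.71 ± 0.09 (spleen). Marf1, an endoribonuclease first described in oocytes, was deepest in spleen at -0.74 ± 0.08, and at -0.55 in liver and -0.38 in bone marrow. Swt1, an endoribonuclease of the nucleus, was at -0.42, -0.45 and -0.35. The decapping genes Edc3 and Pnrc2 were deepest in liver, Edc3 at -0.58, -0.39 and -0.44 and Pnrc2 at -0.66, -0.31 and -0.40. LTO1, a factor for the ribosome-recycling protein ABCE1, was at -0.70, -0.36 and -0.50 with no overlap in any tissue. Dusp11, an RNA triphosphatase, ranged only from -0.45 in liver to -0.32 in bone marrow. Fastkd1, which acts on mitochondrial RNA, was deepest in bone marrow at -0.67. Ngrn, a mitochondrial ribosome assembly factor, was the most even gene of the whole set, as given above.

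DNA-binding transcription factors made up 14 of the 110 genes, with medians of -0.46 (liver), -0.40 (bone marrow) and -0.57 (spleen). The rule had left out 13 Zfp genes and Sox18. The share of such factors among the 8731 genes was not counted, so nothing is read from their number. Purg encodes a relative of the single-strand DNA-binding protein PURA. Control livers of Purg ran from 5.84 to 6.43 with a median of 6.11, near the minimum that the rule set, and reduced oxygen livers from 4.89 to 5.54 with a median of 5.28. Bone marrow read 8.10, 8.27 and 8.36 in controls and 7.69, 7.54, 7.72 and 7.48 under reduced oxygen. Purg spleens ran from 7.65 to 8.09 with a median of 7.97 in controls and from 6.84 to 7.52 with a median of 7.01 under reduced oxygen. All 3 tissues kept the arms apart, with differences of -0.86 ± 0.10, -0.63 ± 0.09 and -0.81 ± 0.10. Its relative Pura was at -0.38, -0.46 and -0.61.

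Thap2, which carries the THAP zinc finger, had one of the most uneven patterns. Its control livers ran from 6.57 to 6.85 with a median of 6.59 and its reduced oxygen livers from 5.88 to 6.56 with a median of 6.24. In bone marrow Thap2 read 7.44, 7.62 and 7.34 in controls and 6.50, 6.58, 6.36 and 6.18 under reduced oxygen. Spleen controls ran from 7.20 to 7.72 with a median of 7.42 and reduced oxygen spleens from 5.40 to 6.52 with a median of 6.08. The arms did not overlap in any tissue, yet the difference was -0.36 ± 0.09 in liver against -1.07 ± 0.11 in bone marrow and -1.43 ± 0.13 in spleen, a level 2.70-fold lower there. Snai2, the repressor Slug of epithelial and blood progenitor cells, was deepest in bone marrow. Its bone marrow arrays read 8.21, 8.61 and 8.33 in controls and 6.89, 6.88, 6.90 and 6.78 under reduced oxygen, a difference of -1.52 ± 0.09 or 2.87-fold. In liver (-0.48 ± 0.14) and spleen (-0.57 ± 0.12) the arms of Snai2 overlapped. Irf1, the interferon regulatory factor of the interferon-gamma response, was deepest in liver. It ran from 8.84 to 9.43 with a median of 9.22 in control livers and from 7.65 to 8.13 with a median of 7.97 under reduced oxygen, -1.23 ± 0.09, with -0.40 ± 0.09 in bone marrow and -0.67 ± 0.14 in spleen.

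Creb1, the cyclic AMP response factor, was at -0.38, -0.34 and -0.37, and its relative Crebzf at -0.38, -0.49 and -0.39. Smad5, a BMP signal transducer, was at -0.44, -0.47 and -0.57. Nfya, the subunit of NF-Y that reads CCAAT boxes, was at -0.62, -0.37 and -0.58 without overlap in any tissue. The homeodomain partner gene Pbx2 was at -0.52, -0.37 and -0.58. Zkscan8, a zinc finger gene whose symbol the rule did not leave out, was at -0.94 ± 0.13 in liver but at -0.31 and -0.45 in bone marrow and spleen. The zinc finger genes Zscan21 and Zbtb24 and the RNA polymerase I terminator Ttf1 lay between -0.51 (Zscan21 in liver) and -0.30 (Zbtb24 in bone marrow).

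Cofactors and chromatin proteins also made up 14 genes, with medians of -0.49, -0.41 and -0.51 in liver, bone marrow and spleen. Nab2, the corepressor that binds EGR factors and is itself induced by them, was the deepest of them in liver and spleen, and Tasor in bone marrow. Nab2 ran from 7.07 to 7.99 with a median of 7.75 in control livers and from 5.74 to 7.29 with a median of 6.51 under reduced oxygen, so the arms overlapped. Spleen controls ran from 7.61 to 8.47 with a median of 8.06 and reduced oxygen spleens from 6.81 to 7.33 with a median of 7.07, without overlap. The differences were -1.18 ± 0.20 (liver), -0.50 ± 0.12 (bone marrow) and -1.01 ± 0.12 (spleen). Ccnt1, the cyclin of the elongation kinase P-TEFb, was at -0.35 ± 0.08, -0.56 ± 0.06 and -0.58 ± 0.07, and Med20, a Mediator subunit, at -0.49, -0.52 and -0.52. Ogt, the enzyme that puts O-GlcNAc on nuclear proteins, was at -0.72 ± 0.08, -0.42 ± 0.10 and -0.71 ± 0.06 with no overlap in any tissue.

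Polycomb-linked genes of the group were Pcgf3, at -0.83, -0.53 and -0.50, and Asxl1, at -0.48, -0.39 and -0.32. The histone demethylase gene Kdm2a was at -0.53, -0.31 and -0.35. Tasor, the core of the HUSH silencing complex, was deepest in bone marrow at -0.84 ± 0.07 and at -0.30 in liver and -0.51 in spleen. Phf23, a PHD finger gene, and Zmym2, a zinc finger partner of LSD1 complexes, were deepest in spleen, at -0.71 and -0.75. Pygo2, which reads histone marks in WNT signalling, was at -0.44, -0.36 and -0.34. The remodeller gene Chd9, the Sin3 complex gene Brms1l and Kansl1l, a relative of an acetyltransferase subunit, lay between -0.31 and -0.51, both ends being those of Brms1l.

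The 6 genes of telomeres, DNA repair and chromosome segregation had medians of -0.45, -0.49 and -0.49. Pot1a encodes the protein that caps single-stranded telomere ends. Pot1a ran from 5.77 to 6.73 with a median of 6.13 in control livers and from 5.37 to 6.01 with a median of 5.76 under reduced oxygen. Its bone marrow arrays read 8.74, 8.99 and 8.81 in controls and 8.39, 8.37, 8.23 and 8.25 under reduced oxygen. Spleen controls ran from 8.14 to 8.58 with a median of 8.31, and reduced oxygen spleens from 7.58 to 8.25 with a median of 7.71 with replicate 4 the highest. The arms overlapped in liver and spleen and not in bone marrow, and the differences of Pot1a were nearly equal at -0.51 ± 0.13, -0.54 ± 0.08 and -0.56 ± 0.09. Terf1, the double-strand telomere-binding protein of the same shelterin complex, was at -0.67 ± 0.10, -0.84 ± 0.06 and -0.47 ± 0.09. Shprh, a ubiquitin ligase of replication damage tolerance, was at -0.70, -0.61 and -0.51 with no overlap. The kinetochore gene Mis12, the mitotic checkpoint gene Mad2l1bp and the centrosome gene Cep350 lay between -0.57 (Mis12 in spleen) and -0.30 (Mad2l1bp in liver).

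Ubiquitin ligases, deubiquitinases and their adaptors made up 11 genes, with medians of -0.46, -0.50 and -0.50. Ubxn7, an adaptor between the p97 segregase and cullin ligases that is known to contact HIF-1alpha, was the deepest in bone marrow and spleen. In bone marrow Ubxn7 read 8.14, 8.24 and 8.20 in controls and 7.31, 7.12, 6.99 and 6.95 under reduced oxygen. Its spleens ran from 7.57 to 7.92 with a median of 7.70 and from 6.48 to 7.14 with a median of 6.65. Its levels were 2.14-fold and 2.03-fold lower there, -1.10 ± 0.09 and -1.02 ± 0.09, while liver gave -0.43 ± 0.12 with overlapping arms. Klhl42, a cullin adaptor, was deepest in spleen at -0.72 and at -0.32 in liver, and Kctd21, another, was at -0.46, -0.58 and -0.62. The ligase genes Rnf135, Rnf181, Trim39 and Trim34a lay between -0.63 (Rnf135 in liver) and -0.34 (Rnf181 in bone marrow). The deubiquitinase genes Usp40 and Otud3 were at -0.51 and -0.61 in liver, and Wdr48, a cofactor of deubiquitinases, at -0.31. Fem1c, a substrate receptor of cullin ligases, was at -0.39, -0.38 and -0.43 by its brightest probe set.

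Cell death, stress and immune signalling genes numbered 13, with medians of -0.44, -0.53 and -0.58. Cflar encodes c-FLIP, the inhibitor of caspase-8 at death receptors. Cflar ran from 8.58 to 9.01 with a median of 8.92 in control livers and from 7.66 to 8.37 with a median of 8.16 under reduced oxygen. The bone marrow arrays read 9.40, 9.40 and 9.50 in controls and 8.90, 8.88, 8.56 and 9.04 under reduced oxygen. Cflar spleens ran from 9.12 to 9.72 with a median of 9.48 in controls and from 8.56 to 9.05 with a median of 8.75 under reduced oxygen. The arms did not overlap and the differences were -0.73 ± 0.10, -0.59 ± 0.11 and -0.67 ± 0.09. Traf2 and Traf5, adaptors of TNF receptors, were at -0.44 and -0.47 in liver, -0.41 and -0.30 in bone marrow and -0.58 and -0.61 in spleen.

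Clec2d encodes a C-type lectin that engages an inhibitory receptor of NK cells. Clec2d ran from 9.33 to 10.40 with a median of 10.30 in control livers and from 7.21 to 9.09 with a median of 8.79 under reduced oxygen, 3.02-fold lower on average. In bone marrow it read 6.93, 7.54 and 7.67 in controls and 6.91, 6.71, 6.46 and 6.93 under reduced oxygen. In spleen it ran from 9.61 to 10.81 with a median of 10.41 and from 8.60 to 9.90 with a median of 9.33. The arms overlapped in bone marrow and spleen, the standard errors were among the wider ones, and the differences were -1.60 ± 0.22, -0.63 ± 0.18 and -1.01 ± 0.18. Fzd7, a WNT receptor, ran from 6.91 to 8.02 with a median of 7.40 in control livers and from 4.93 to 6.53 with a median of 6.15 under reduced oxygen, -1.49 ± 0.21. Its bone marrow difference was -0.37 ± 0.07 and its spleen difference -0.31 ± 0.10, close to the threshold of the rule. Ern1, the endoplasmic reticulum stress sensor IRE1alpha, was at -0.93 ± 0.10, -0.98 ± 0.11 and -0.48 ± 0.07 with no overlap.

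Ier5, an immediate early gene, was at -0.44 ± 0.10, -0.70 ± 0.10 and -0.77 ± 0.13. The suppressors of cytokine signalling Socs4 and Socs7 were at -0.42 and -0.40 in liver, -0.37 and -0.53 in bone marrow and -0.33 and -0.72 in spleen. Chordc1, an HSP90 cochaperone, was at -0.40, -0.54 and -0.69. Parp14, an interferon-linked ADP-ribosyltransferase, was at -0.34, -0.55 and -0.54. The kinase genes Map3k2 and Tec ranged from -0.60 (Tec in liver) to -0.31 (Map3k2 in bone marrow).

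Glycosylation, metabolism and transport genes numbered 13, with medians of -0.49, -0.42 and -0.44. Kpna4 encodes importin alpha 3, which carries proteins such as NF-kappaB into the nucleus. Its control livers were tightly placed, from 8.50 to 8.65 with a median of 8.54, and its reduced oxygen livers ran from 7.21 to 8.11 with a median of 7.65. Kpna4 in bone marrow read 9.95, 9.99 and 10.06 in controls and 9.14, 9.30, 9.17 and 9.45 under reduced oxygen. Kpna4 spleens ran from 9.63 to 10.19 with a median of 9.82 in controls and from 9.05 to 9.39 with a median of 9.25 under reduced oxygen. No overlap was seen, with differences of -0.94 ± 0.12, -0.74 ± 0.08 and -0.64 ± 0.09. Chac2, a glutathione-degrading enzyme, was at -1.002 ± 0.12 in bone marrow and -0.49 ± 0.11 in liver. In spleen its difference of -0.32 ± 0.39 was smaller than its standard error, with controls from 7.31 to 10.41 with a median of 8.29. Slc16a4, a monocarboxylate transporter, was at -0.97 ± 0.16, -0.42 ± 0.10 and -0.56 ± 0.20.

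Ppm1k, the phosphatase that activates branched-chain amino acid breakdown, was deepest in liver at -0.88 ± 0.13, with -0.42 and -0.65 elsewhere. Zdhhc18, a palmitoyltransferase, was deepest in spleen at -0.97 ± 0.10, with -0.47 in liver and -0.59 in bone marrow. Ampd2, the AMP deaminase, was at -0.37 ± 0.32 in liver, where the standard error was nearly as large as the difference, and at -0.33 and -0.37 in bone marrow and spleen. The sugar-handling genes B3galnt2, B4galt5, Ganc and Gba2 ranged from -0.80 in liver to -0.30 in spleen, both for B4galt5. Ormdl1, a regulator of sphingolipid synthesis, was at -0.33, -0.38 and -0.48 without overlap. Gga3, a Golgi sorting adaptor, and Stxbp5, a syntaxin-binding protein, ranged from -0.50 (Stxbp5 in bone marrow) to -0.31 (Stxbp5 in spleen).

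The remaining 18 genes act on the cytoskeleton, have other roles or are named without a role here, with medians of -0.46, -0.45 and -0.57. The noncoding 1110002L01Rik had the highest place among them. It ran from 6.15 to 6.53 with a median of 6.26 in control livers and from 5.30 to 5.73 with a median of 5.39 under reduced oxygen. Bone marrow gave 6.50, 6.70 and 6.89 in controls and 5.97, 5.91, 5.62 and 6.28 under reduced oxygen. Spleen gave 7.02 to 7.37 with a median of 7.23 in controls and 6.20 to 6.81 with a median of 6.50 under reduced oxygen. Its arms did not overlap and its differences were -0.87 ± 0.08, -0.75 ± 0.15 and -0.68 ± 0.08. Atat1, the acetyltransferase of alpha-tubulin, was read by one probe set in liver and by another in bone marrow and spleen. Atat1 ran from 6.85 to 7.50 with a median of 6.95 in control livers and from 5.79 to 6.35 with a median of 6.21 under reduced oxygen. It read 6.01, 6.42 and 6.25 in control bone marrow and 5.48, 5.74, 5.72 and 5.89 under reduced oxygen. The spleens of Atat1 ran from 6.19 to 6.65 with a median of 6.43 and from 5.43 to 6.05 with a median of 5.76. The arms stayed apart in each tissue, at -0.92 ± 0.11, -0.52 ± 0.12 and -0.67 ± 0.09.

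Among the others, Fchsd2, an actin and endocytosis protein, was deepest in spleen at -0.98 ± 0.12, with -0.49 in liver and -0.43 in bone marrow. Lppos, a noncoding antisense gene, was at -0.74 ± 0.12, -0.37 ± 0.10 and -0.81 ± 0.12. Plekhg3 and Fgd6 were at -0.74 and -0.55 in liver and near the threshold in bone marrow. Pdrg1 and 0610030E20Rik showed no overlap in any tissue and were deepest in liver, at -0.65 and -0.68. Blcap, Ttc9c and Pcmtd2 were deepest in spleen, at -0.68, -0.61 and -0.54. Fam120b, Ammecr1l and C330018D20Rik were weaker in liver, at -0.44, -0.31 and -0.33, than in bone marrow, at -0.67, -0.64 and -0.66. Tor4a, Sh3d19, D11Wsu47e and Ppp4r3b, a regulatory subunit of protein phosphatase 4, ranged from -0.52 (Tor4a in bone marrow) to -0.32 (Sh3d19 in bone marrow).

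**Figure D3:**
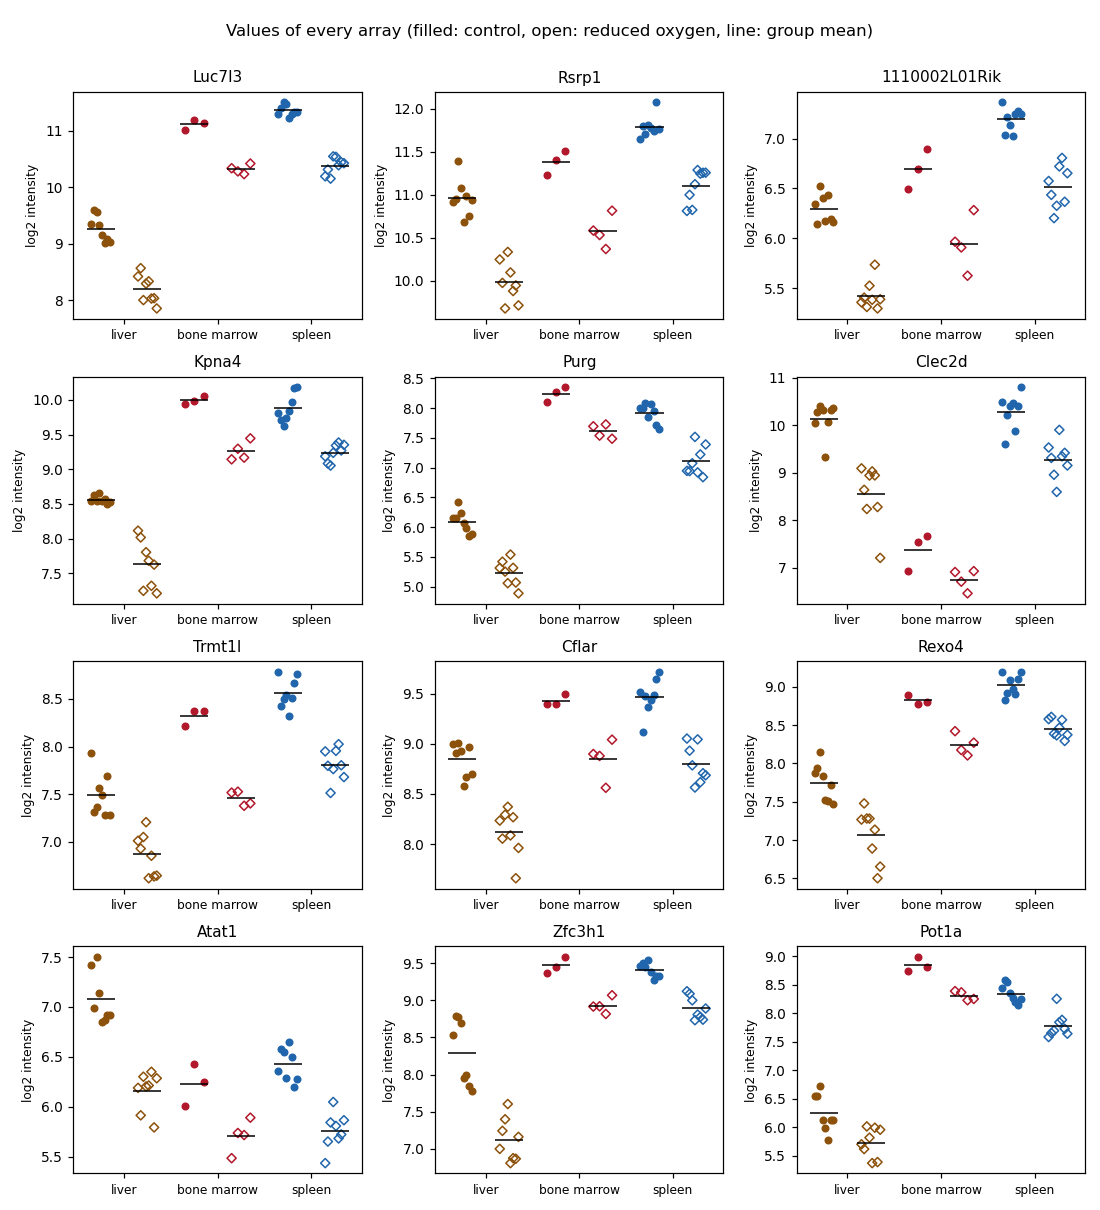
Log2 intensity of the 12 genes with the largest weakest difference in every array of liver, bone marrow and spleen, filled for control and open for reduced oxygen, with a line at each group mean. For 9 of the 12 the arms do not overlap in any tissue, the exceptions being Clec2d (bone marrow and spleen), Rexo4 (liver) and Pot1a (liver and spleen).

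The rule's edge fell in a dense range of differences. Just inside it were B4galt5 at -0.3003 in spleen, Mad2l1bp at -0.3004 in liver and Fgd6 at -0.3012 in bone marrow. Just outside were Ezh1, a polycomb methyltransferase gene, at -0.2993 in liver, Kmt2a, a histone H3 methyltransferase gene, at -0.2990 in bone marrow and 2310061I04Rik at -0.2974 in liver. A threshold of -0.2 gave 283 genes and one of -0.4 gave 47. With any 1 array left out the rule found 97 to 132 genes, and 66 of the 110 stayed in the set whichever array was left out. In the opposite direction 43 of the 8731 genes were higher by at least 0.3 in all 3 tissues.

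The replicate numbers allowed comparisons that the rule did not make, though on the same arrays that it averaged. Whether the choice of the genes favoured some differences between the number sets was not tested. Control livers 5 to 8 were compared with control livers 1 to 4 by limma over all 12735 genes, of which 30.2% differed and 20.1% were lower in 5 to 8. Of the 110 genes 43 (39.1%) differed, all 43 lower in livers 5 to 8. The median difference of the 110 was -0.24, against -0.06 for all genes tested. The genes tested include dimmer ones that did not meet the control minimum of the rule, so neither comparison is between genes of like level. Ampd2 stood at 9.43 ± 0.05 in livers 1 to 4 and at 8.08 ± 0.14 in livers 5 to 8 (SD, n = 4 each), a difference of -1.35 ± 0.08 (limma adjusted p = 6.21e-05). The Ampd2 control values thus lay in 2 separate groups further apart than its difference between oxygen arms. Its reduced oxygen livers were split too, with means of 8.91 in livers 1 to 4 and 7.86 in livers 5 to 8. Within these sets its difference between the arms was -0.52 and -0.22. Zfc3h1 differed by -0.80 ± 0.08 (limma adjusted p = 0.000849), Usp40 by -0.67 ± 0.09 (limma adjusted p = 0.00137) and Asxl1 by -0.61 ± 0.08 (limma adjusted p = 0.00165). The other 39 genes called were Marf1, Fzd7, Ammecr1l, C330018D20Rik, Rnf135, Lppos, Nab2, Pot1a, B3galnt2, Zdhhc18, Slc16a4, Dusp11, Fastkd1, Pbx2, Smad5, Gga3, Rexo4, Luc7l3, Rbm5, Parp14, Atat1, Zkscan8, Gba2, Terf1, Trim39, Pcgf3, Ngrn, Zscan21, Fem1c, Creb1, Purg, Khdc4, Swt1, Ogt, Stxbp5, Map3k2, Pnrc2, Traf2 and Zmym2. Quantile normalization within liver left 19 of the 43 calls, and leaving out control liver 6 gave 27 calls. Calls over all genes were not counted under these 2 settings, so nothing particular to the 110 is read from the shifts.

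A sign of RNA integrity moved with these sets. The log2 difference between the 3′ and 5′ probe sets of the beta-actin control on the array was 0.95 to 1.55 in control livers 1 to 4 and 0.57 to 0.69 in control livers 5 to 8. Under reduced oxygen it was 0.71 to 1.25 in livers 1 to 4 and 0.56 to 0.69 in livers 5 to 8. Its part in the differences between sets was not tested. Within livers 5 to 8, where the beta-actin values of the 2 oxygen arms covered the same range, the median difference of the 110 genes between reduced oxygen and control was -0.49, against -0.52 within livers 1 to 4. All 110 genes were below 0 in both sets, and 98 in each were at or below -0.3, which the choice of the genes on these same livers makes likely, so nothing on RNA integrity is read from it.

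The difference between the oxygen arms itself was compared between the number sets, by the interaction term of limma. In liver 0 of the 110 genes passed, the smallest adjusted p was 0.352 and 0% of all genes tested passed. The widest gaps were those of Fzd7, -1.998 in livers 1 to 4 and -0.97 in livers 5 to 8, and of Ubxn7, -0.13 and -0.73. In spleen 0 of the 110 passed, the smallest adjusted p was 0.317 and 0.196% of all genes passed. The median difference was -0.51 in spleens 1 to 4 and -0.53 in spleens 5 to 8, with 101 and 105 genes at or below -0.3. Chac2 was the only gene above 0 in a set, at 0.33 in spleens 5 to 8 and -0.98 in spleens 1 to 4. Control spleens 5 to 8 against 1 to 4 gave 0 calls among the 110 by limma (smallest adjusted p 0.0917) and 0% among all genes. Leaving out control spleen 5 gave 5 calls among the 110, and leaving out reduced oxygen spleen 4 gave 1 for the spleen interaction. For these settings too, calls over all genes were not counted. With 4 arrays a set, a missed threshold does not show that the sets act alike.

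**Figure D4:**
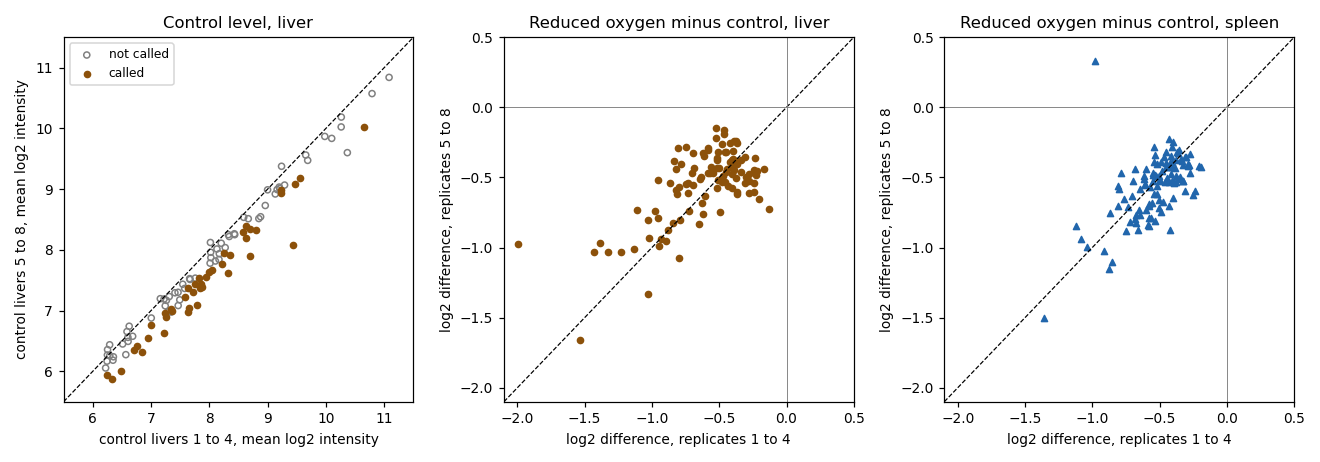
The left panel plots the mean log2 intensity of each of the 110 genes in control livers 5 to 8 against control livers 1 to 4, filled where limma called a difference, and the other panels plot the log2 difference between oxygen arms in replicates 5 to 8 against 1 to 4 for liver and spleen, with dashed lines of equality. All 43 filled points lie below the line, and the spleen point above 0 is Chac2 at 0.33.

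Many of the genes have further probe sets on the array, which the rule did not read, though they measure the same contrast and so carry no test either. For 83 genes there were 166 further probe sets, 27 genes had 1 probe set only, and 103 genes used the same probe set in all 3 tissues. Of the further probe sets with a control mean of at least 6, 67 of 71 were below 0 in liver, 81 of 104 in bone marrow and 88 of 107 in spleen. At or below -0.3 were 42, 42 and 57. The shares over all probe sets of the array were not counted, so nothing is read from these counts. Over all genes tested, by their brightest probe sets, the median differences were -0.03, -0.01 and -0.01. At least 1 further probe set above 0 was found for 26 genes in some tissue, and for 6 genes it reached 0.3 or more. Using the mean of a gene's probe sets in place of the brightest gave 51 genes, 43 of them shared with the 110.

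The clearest disagreements were within single genes. Fem1c had a probe set at 1.19 in bone marrow and 1.42 in spleen, against -0.38 and -0.43 by its brightest probe set. The mean over all Fem1c probe sets was above 0 in every tissue, at 0.51 (liver), 0.41 (bone marrow) and 0.49 (spleen). Cflar had one at 0.61 in bone marrow and 0.85 in spleen, and another at 0.31, 0.28 and 0.31 in liver, bone marrow and spleen. The Cflar mean over all its probe sets was -0.27 (liver), -0.08 (bone marrow) and -0.09 (spleen). Fam120b had a probe set at 0.35, 0.53 and 0.55 in the 3 tissues. Asxl1 had one at 0.27 in bone marrow and 0.39 in spleen, and its mean over probe sets was -0.06, 0.04 and 0.15. Such means were also above 0 for Socs4 in bone marrow (0.02) and Pcgf3 in spleen (0.0079). Pnrc2 had a further probe set at 0.38 and 0.17 in bone marrow and spleen, and Pcgf3 one at 0.11 and 0.33. Rsrp1 had a further probe set at 0.23 (liver), 0.08 (bone marrow) and 0.23 (spleen), and its mean over probe sets was -0.54, -0.55 and -0.35. Luc7l3 had one at 0.22 in bone marrow and 0.02 in spleen, and Zscan21 one at 0.26 and 0.15. Above 0 by less than 0.2 in at least 1 tissue were further probe sets of Chd9, Creb1, Ern1, Fgd6, Gba2, Ier5, Kansl1l, Khnyn, Map3k2, Neat1, Rbm5, Socs4, Socs7, Stxbp5, Terf1, Trmt1l and Wdr48. Which transcript each probe set reads was not analysed here, so for these genes the difference belongs to the probe set named by the rule and not to all transcripts of the gene.

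**Figure D5:**
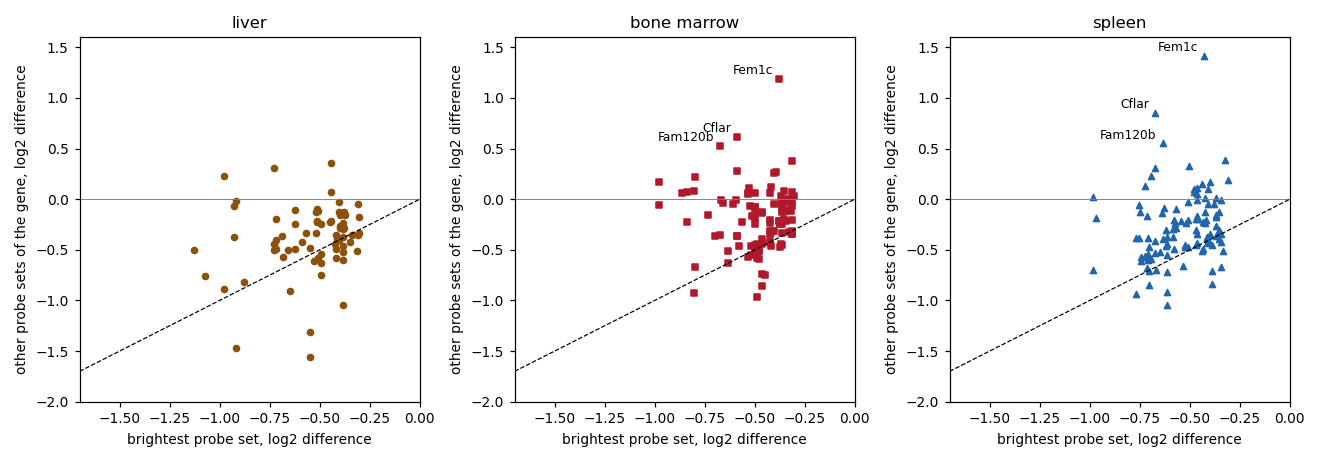
Log2 difference of every further probe set with a control mean of at least 6 against that of the gene's brightest probe set, by tissue, with a dashed line of equality. Most points lie below 0 (67 of 71, 81 of 104 and 88 of 107 in liver, bone marrow and spleen). The share over all probe sets was not counted. The named points of Fem1c, Cflar and Fam120b stand above 0.5.

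Neighbouring genes in the genome were looked up because divergent pairs share a promoter region. The 110 genes held 2 neighbouring pairs, both divergent, Swt1 with Trmt1l on chromosome 1 (starts 107 bases apart) and Thap2 with Zfc3h1 on chromosome 10 (starts 524 bases apart). The members of a pair differed in depth, with Swt1 at -0.45 and Trmt1l at -0.87 in bone marrow. Thap2 and Zfc3h1 ran in opposite order, Thap2 at -0.36 and Zfc3h1 at -1.18 in liver but -1.43 and -0.51 in spleen. A divergent start within 1000 bases was annotated for 19 genes of the set, and for 19.1% of their windows against 18.8% for the genes that met the control minimum. Of the 15 partners outside the set 9 were tested, with median differences of -0.12, -0.15 and -0.02. In liver, bone marrow and spleen 2, 1 and 2 of the 9 were called lower and 0 higher. Over all genes tested 7.22%, 4.92% and 12.6% were called lower, and nothing is read from counts this small. Vezt, an adherens junction gene beside Fgd6, was called lower by limma in all 3, at -0.29, -0.35 and -0.52.

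Fixed gene lists place these genes beside their pathways, and 4 of the 110 were on one, where the counts below include them. The list of transcription elongation, with Ccnt1 as its only gene of the set, had 1 of 28 genes called higher and 3 lower in liver, 0 and 3 in bone marrow and 1 and 7 in spleen, with medians of -0.05, -0.01 and 0.02. Brd3, a bromodomain reader of acetylated histones, fell by 0.91 ± 0.15 in liver (limma adjusted p = 0.000365), by 0.29 ± 0.06 in bone marrow (limma adjusted p = 0.0314) and by 0.43 ± 0.07 in spleen (limma adjusted p = 0.000208). Mepce, which caps the 7SK RNA that holds P-TEFb inactive, fell by 0.49 ± 0.11 in liver, by 0.27 ± 0.06 in bone marrow and by 0.30 ± 0.06 in spleen (limma adjusted p = 0.00438, 0.0283 and 0.00176). Cdk9, the kinase partner of Ccnt1, fell by 0.28 ± 0.06 in spleen (limma adjusted p = 0.00329) and was at 0.10 ± 0.08 in liver and -0.06 ± 0.06 in bone marrow. The list of interferon regulators, with Irf1, had 2 of 16 genes higher and 2 lower in liver, 0 and 2 of 18 in bone marrow and 1 and 7 of 18 in spleen, with medians of -0.03, -0.13 and -0.24. Stat2 fell by 0.84 ± 0.14 in liver (limma adjusted p = 0.000355) and Irf3 fell by 0.40 ± 0.06 in bone marrow (limma adjusted p = 0.00819).

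The list of WNT receptors and feedback genes, with Fzd7, had 0 of 22 genes higher and 6 lower in liver. It had 2 and 2 of 21 in bone marrow and 3 and 5 of 20 in spleen. The medians of this list were near 0, at -0.02, -0.006 and -0.03. Rnf43, a ligase that removes WNT receptors, fell by 1.44 ± 0.20 in liver (limma adjusted p = 6.77e-05) and Axin2, a WNT target, fell by 0.67 ± 0.08 (limma adjusted p = 1.03e-05). Fzd4 fell by 0.47 ± 0.15 in liver (limma adjusted p = 0.0453) and rose by 0.50 ± 0.10 in bone marrow (limma adjusted p = 0.0189). Immediate early genes, with Ier5, counted 13 of 30 called higher and 1 lower in liver, 9 and 1 of 31 in bone marrow and 7 and 4 of 31 in spleen. Ier5 was the lower one in liver and in bone marrow, while Fos, an AP-1 subunit of the same list, rose by 2.03 ± 0.17, 1.65 ± 0.11 and 2.16 ± 0.23 (limma adjusted p = 9.04e-08, 0.000252 and 4.89e-06). The other lists held none of the 110 genes. HIF targets had 15 of 27 higher in liver, 6 of 28 in bone marrow and 14 of 28 in spleen, with 0 lower. Glucocorticoid-induced genes had 18 of 28 higher and 0 lower, 14 of 26 and 2, and 20 of 27 and 2. Notch, BMP and TGF-beta feedback genes had 1 of 24 higher and 4 lower, 4 of 24 and 0, and 2 of 25 and 9. Ribosome biogenesis had 2, 0 and 7 of 30 higher and 0, 0 and 1 lower. Cullin ligase subunits had 0 of 23, 2 of 24 and 1 of 24 higher and 0, 1 and 6 lower, and arrestin-domain genes 2 of 10, 4 of 9 and 3 of 9 higher and 2 lower in each.

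Cell type markers were read beside the set, none of them in it. In control livers the 12 hepatocyte markers averaged 14.55 to 14.58, in control bone marrow the 13 neutrophil markers 13.6 to 13.8 and in control spleens the 12 B cell markers 10.6 to 11.2, as the tissue labels imply. Neutrophil markers had 4 of 13 genes higher in spleen and 4 of 10 in liver, with array means of 8.68 to 9.97 in control and 8.40 to 11.7 in reduced oxygen spleens and of 5.48 to 5.75 and 5.44 to 7.49 in livers. B cell markers had 2 of 12 lower in spleen, with array means of 10.6 to 11.2 and 9.31 to 11.1, and 0 of 6 and 0 of 12 called in liver and bone marrow. T and NK cell markers had 0 of 6 called in liver, 1 of 10 lower in bone marrow and 0 of 12 in spleen, with spleen means of 8.63 to 9.32 and 7.87 to 9.17. Stromal markers had 4 of 12 higher in bone marrow (10.7 to 10.8 and 10.99 to 11.09), 1 of 11 in spleen and 0 of 12 in liver. Macrophage markers had 1 of 11, 1 of 10 and 2 of 10 higher in liver, bone marrow and spleen. Erythroid markers had 1 of 6 lower in liver and 0 of 11 in the other tissues, but ranged from 8.62 to 12.2 over control spleens and from 10.5 to 12.1 under reduced oxygen. Endothelial markers had 1 of 14 lower in liver, 0 of 14 in bone marrow and 1 of 13 higher in spleen, megakaryocyte markers 1 of 9 higher in liver and 0 of 10 elsewhere, and hepatocyte markers 0 called in any tissue. In spleen the median differences were -0.42 (B cell), -0.24 (T and NK cell), -0.08 (stromal), 0.06 (hepatocyte) and 0.18 (endothelial). Those of macrophage, megakaryocyte, erythroid and neutrophil markers there were 0.33, 0.34, 0.67 and 1.04. The part of these cells in the differences of the 110 genes was not tested.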

How the data were processed

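RNA of 39 tissue samples was hybridised to Affymetrix arrays of 45101 probe sets, 64 of them controls. The deposited values are intensities on a linear scale, 5.78 to 43830, summarised per probe set by the authors, whose processing notes name RMA and limma without versions. The genome build is not given in the sources used here. Whether tissues were normalized together is not stated, and array medians differ by tissue, so each tissue was fitted on its own. By the platform annotation 34945 probe sets had 1 symbol, 932 several and 9160 none, and 34741 of the gene IDs were in a GRCm38.p6 gene table, with 0 symbols changed. Columns outside these samples numbered 0.

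The members and lists were chosen with earlier results of these data known. Values were taken to log2 with no offset. In R 4.3.3, limma 3.58.1 (lmFit and eBayes, two-sided, Benjamini-Hochberg, with the data.table package, version 1.17.8, for reading) was fitted to 12735 genes per tissue, those above the 30th percentile of the tissue's gene means, and its code was tested on simulated data. The groups were reduced oxygen and control, and, among controls, replicates 1 to 4 and 5 to 8 with the interaction of set and oxygen. The numbers are submitters' labels with no meaning given. Arrays of the same number deviated together in liver (correlations 0.166 to 0.535), though hardly more than other arrays of the same number set (means 0.303 and 0.262), and less evenly in bone marrow (-0.03 to 0.32, mean 0.144 against -0.05 for other numbers). In spleen they did not (-0.48 to 0.31). No 2 arrays held identical values, and the highest correlation within a tissue was 0.998.

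Every gene of the set is named. Full values are given for the 12 with the largest weakest difference, beside others chosen after their values were seen. Up to 3 genes of smallest p are named per list described, and Cdk9 and Fzd4 were also chosen after their values were seen. The alternatives were other thresholds and control minimums, other probe set choices, group medians, quantile or median scaling, other dim-gene filters and variance priors, 1 number set alone or as a term, a replicate block and each array left out.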

Additional observations from a re-analysis of the deposited data

Results flagged for a closer look

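For each of the 110 genes, each group of 4 or more arrays was searched for a single array far from the rest, by the gap to its nearest neighbour over the group's range. Of 550 such groups 30 (5.45%) held one, where chance alone gives about 1 in 20. All values are log2 intensities, with the range of the group's other arrays in parentheses.

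Reduced oxygen spleen 4 accounted for 9 of the 30. It was high for the telomere genes Pot1a at 8.25 (7.58 to 7.88) and Terf1 at 8.59 (8.16 to 8.30), for Mis12 at 8.63 (7.36 to 7.85), Socs4 at 9.60 (9.25 to 9.41), Sh3d19 at 7.58 (6.74 to 7.12) and Mad2l1bp at 9.17 (8.47 to 8.79). It was low for Fam120b at 7.02 (7.44 to 7.80), Ier5 at 9.08 (9.71 to 10.08) and B4galt5 at 7.82 (8.43 to 8.76). This array also had the lowest mean correlation with its own group, 0.981. Without it the rule found 114 genes, 107 of them shared with the 110.

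In bone marrow under reduced oxygen, array 4 was low for Snai2 at 6.78 (6.88 to 6.90), Pdrg1 at 8.05 (8.35 to 8.37), Crebzf at 8.58 (8.66 to 8.67) and Ganc at 6.05 (6.71 to 6.79). Its log2 difference between 3′ and 5′ probe sets of the Gapdh control was 0.51, against -0.03 to 0.08 in the other bone marrow arrays. For beta-actin it was 0.36, against 0.14 to 0.26. Its mean correlation with its own group, 0.9949, was the lowest in bone marrow. The part of RNA integrity in these values was not tested. Array 2 was low for Ppm1k at 7.74 (7.87 to 7.89) and high for Map3k2 at 8.04 (7.90 to 7.92), and array 1 was high for Chordc1 at 10.10 (9.42 to 9.52).

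In reduced oxygen livers, array 4 was high for Med20 at 8.12 (7.06 to 7.55), Fchsd2 at 8.41 (7.29 to 7.79) and Pcmtd2 at 9.19 (8.51 to 8.80). Array 8 was low for Clec2d at 7.21 (8.24 to 9.09), array 7 low for Kansl1l at 4.96 (5.65 to 6.07) and array 6 high for Akap17b at 6.26 (5.77 to 6.00). Among control livers, array 5 was low for Clec2d at 9.33 (10.04 to 10.40) and Ttc9c at 7.81 (7.96 to 8.06), array 3 high for Med20 at 8.40 (7.76 to 8.01) and array 4 high for LTO1 at 8.51 (7.89 to 8.13). Among control spleens, array 7 was high for Rsrp1 at 12.08 (11.65 to 11.81), array 5 low for Socs7 at 8.60 (8.89 to 9.15), and array 2 low for Pura at 9.52 (9.77 to 9.94) and high for Swt1 at 8.96 (8.28 to 8.54).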

How the results depend on the processing

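The number of genes at or below the threshold in all 3 tissues moved most with the rule itself: the mean of a gene's probe sets gave 51 (43 shared with the 110), a threshold of -0.2 gave 283 and one of -0.4 gave 47. The other planned settings gave 78 (control minimum 7) to 123 (control minimum 5), and livers and spleens 1 to 4 or 5 to 8 alone gave 117 and 112, each sharing 89. With 1 array left out the number ran from 97 (without bone marrow control 3) to 132 (without reduced oxygen liver 4). Lower calls among the 110 ran from 50 to 81 in bone marrow, 89 to 104 in liver and 103 to 107 in spleen with 1 array left out. Over all 12735 genes they ran from 263 to 580, 652 to 1060 and 1353 to 1863 in the same order. The counts of genes that differed between control livers 1 to 4 and 5 to 8 ran from 27 to 43, and quantile normalization gave 19. Control spleens gave 0 to 5, the spleen interaction 0 to 1 and the liver interaction 0. For these comparisons of number sets, calls over all genes were not counted under the alternatives. Among the 12 leading genes, the mean of probe sets moved 22 of their values in single tissues by more than the spread between replicates, all toward 0 and none past it, with Pot1a at -0.11 in liver and Cflar at -0.08 in bone marrow the nearest. Outside those 12, the mean of probe sets turned Fem1c above 0 in all 3 tissues (0.41 to 0.51), Asxl1 in bone marrow (0.04) and spleen (0.15), Socs4 in bone marrow (0.02) and Pcgf3 in spleen (0.0079), and Chac2 was at 0.33 in spleens 5 to 8 alone. Causes of these shifts were not tested. With the replicate block the rule gave 109 genes (103 shared), and no interaction count left 0. Lower calls among the 110 then numbered 107 in liver, 102 in spleen and 82 in bone marrow. Over all genes they numbered 1637, 1264 and 615. Genes near the threshold have no firm place in or out of the set.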
